A study of Mus musculus with 4 samples.

Results

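The genes described here are 10 heat shock chaperone and co-chaperone genes, Hspa1a, Hspa1b, Hspa8, Hsph1, Dnajb1, Dnaja1, Bag3, Hsp90aa1, Hspb1 and Hspe1, measured by single-cell RNA sequencing of mouse hearts. They were taken by symbol from the 31053 genes of the count matrices, and all 10 were detected in all 4 libraries. They were chosen by an earlier look at these counts, in which several of them were higher in fibroblasts of the high-fibre libraries. Their diet values in fibroblasts are therefore a description and carry no test. The 4 libraries came from hearts of 6-week-old offspring, 2 of dams with high fibre intake (high_fibre 1 and 2, a feed rich in resistant starch) and 2 of control diet-fed dams (control_diet 1 and 2, a feed that the series text calls low in resistant starch). Both feeds were given through pregnancy and lactation, and offspring of both groups ate the same standard chow from weaning at 3 weeks. Hearts of all groups were digested enzymatically (collagenase IV at 2 mg/mL, dispase II at 1 mg/mL), and the cells were sorted as live, metabolically active and nucleated before 10x Genomics 3′ capture. The labels give no strain, no sex and no number of animals behind a library, so the spread between libraries may be biological or technical.

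Heat shock proteins are chaperones that bind unfolded proteins and help them to fold or to be degraded. Under heat, oxidants or other protein stress the transcription factor HSF1 is released from chaperones, binds heat shock elements near its target genes and drives transcription of the inducible members within minutes. Hspa1a and Hspa1b encode the stress-inducible Hsp70, whereas Hspa8 encodes its constitutive relative. J-proteins (Dnajb1, Dnaja1) hand substrates to Hsp70 and start its ATP cycle, Hsph1 (Hsp110) and Bag3 act as its nucleotide exchange factors, Hsp90aa1 encodes the inducible cytosolic Hsp90, Hspb1 the small chaperone Hsp27 and Hspe1 the mitochondrial co-chaperonin Hsp10. Enzymatic digestion of tissue is also known to switch on heat shock and immediate early genes in the cells being released. How far it did so in these libraries was not tested.

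The promoters were read for heat shock elements, since all the inducible members are known HSF1 targets and the question below is how far they move together. Windows of the 250 bases before the transcription start were taken from RefSeq (GRCm38.p6) for 8 of the genes, with 12 windows in all since some genes have several starts. A heat shock element consists of GAA units in alternating orientation. The 2-unit form searched was GAANNTTC or TTCNNGAA, each of which reads the same on both strands. It stood in 4218 of 32851 RefSeq windows of this length (12.8%) and in 7 of the 12 windows (58.3%), from 6 of the 8 genes, with no match in those of Dnajb1 and Bag3. Overlapping windows of Hsph1 hold the same match, and those of Hspa1a and Hspa1b are near copies, so the 7 are not all distinct. The 3-unit form, GAANNTTCNNGAA or TTCNNGAANNTTC, whose letters overlap the 2-unit form, stood in 153 of all windows (0.466%) and, among these genes, in that of Hspe1. Windows of 4 of the genes are shown, with every match in capitals, 5′ to 3′ on the gene's strand. They are Hspa1a (chr17:34972157-34972406, minus strand), Hspb1 (chr5:135887669-135887918, plus strand), Hsph1 (chr5:149636316-149636565, minus strand) and Hspe1 (chr1:55087898-55088147, plus strand).
Hspa1a: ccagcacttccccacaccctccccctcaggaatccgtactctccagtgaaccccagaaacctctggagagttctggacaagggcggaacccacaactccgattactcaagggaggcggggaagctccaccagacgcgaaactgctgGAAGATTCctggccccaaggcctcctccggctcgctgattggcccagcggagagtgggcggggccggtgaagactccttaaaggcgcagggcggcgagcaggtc
Hspb1: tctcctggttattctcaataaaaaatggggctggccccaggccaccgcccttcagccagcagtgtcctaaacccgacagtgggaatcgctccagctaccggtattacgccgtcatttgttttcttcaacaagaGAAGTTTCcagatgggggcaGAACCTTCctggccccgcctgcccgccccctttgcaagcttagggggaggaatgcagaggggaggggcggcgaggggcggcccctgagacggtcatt
Hsph1: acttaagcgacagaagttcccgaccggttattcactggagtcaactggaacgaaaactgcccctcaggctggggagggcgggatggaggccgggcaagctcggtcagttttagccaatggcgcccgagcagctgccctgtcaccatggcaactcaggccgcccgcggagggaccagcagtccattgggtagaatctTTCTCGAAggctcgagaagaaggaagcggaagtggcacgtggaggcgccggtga
Hspe1: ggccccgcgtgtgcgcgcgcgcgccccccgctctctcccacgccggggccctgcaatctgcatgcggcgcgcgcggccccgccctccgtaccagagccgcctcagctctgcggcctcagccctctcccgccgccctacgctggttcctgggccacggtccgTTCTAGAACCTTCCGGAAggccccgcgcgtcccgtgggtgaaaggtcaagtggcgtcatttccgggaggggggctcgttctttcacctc
The match in Hspa1a begins 104 bases before the start, those in Hspb1 at 117 and 97 bases, that in Hsph1 at 54 bases and those in Hspe1 at 89, 84 and 79 bases. Hspa1b holds the same GAAGATTC as Hspa1a at the same distance of 104 bases, and the windows of these neighbours differ at 3 of 250 bases. Their coding sequences are 99.5% identical, with 10 differing columns over 1926 aligned, but their 3′ UTRs are 51.4% identical. A 3′ library reads mostly the ends of transcripts, and the last 300 bases of the transcripts were 52.8% identical. Reads that fall within the coding sequence can still not be assigned to either copy, so the level of each is uncertain and their sum is given beside them.

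The count matrices held 26765 cell barcodes, between 2966 in control_diet 2 and 9036 in high_fibre 2, with 27577599 UMIs in control_diet 2 and 56582577 to 69600492 UMIs in the other 3 libraries. A UMI is a molecular barcode that counts 1 captured RNA molecule. Before any result, 867 barcodes were found in more than 1 library. In 834 of them the largest copy held at least 3 times the UMIs of the next, with a median ratio of 27.5. The largest copies had a median of 19208 UMIs and 690 of them lay in control_diet 2, while the 2012 smaller copies had a median of 638 UMIs. What produced the copies was not tested. Each barcode was kept where it had the most UMIs. Fits were also run with all copies kept and with shared barcodes left out, and values of the latter alone are given below. Leaving them out took control_diet 2 from 588 to 182 gated fibroblasts and from 274 to 149 gated macrophages. The remaining 21932 cells were gated by marker genes alone, none of them a chaperone, and 19311 cells (88.0%) passed exactly 1 of 7 gates. These were 7169 endothelial (Pecam1, Cdh5), 6593 fibroblast (Col1a1, Dcn), 3174 macrophage (C1qa), 1003 pericyte (Kcnj8, Vtn), 878 B cell (Cd79a), 330 T cell (Cd3e) and 164 smooth muscle cells (Myh11). Smooth muscle rested on 26 to 76 cells per library and T cells on 32 to 104. Markers that no gate used stood high in their own gate, for example 12213 to 13883 CPM of 7 further macrophage genes in gated macrophages against at most 37.2 CPM in gated fibroblasts (CPM, UMIs per 1000000 UMIs of that cell type and library). The gated cells of every library held both Xist, made from the inactive X of females, and the Y-linked Ddx3y. Xist was 277 and 592 CPM in high_fibre 1 and 2, against 747 and 438 CPM in control_diet 1 and 2, and Ddx3y 73.1 and 40.1 CPM against 29.1 and 42.6 CPM. The part of this mixture of sexes in the results below was not tested.

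Macrophages carried the highest level of inducible Hsp70 of all 7 gated types in each of the 4 libraries. Hspa1a (ENSMUSG00000091971, chr17:34969190-34972156, minus strand, GRCm38) stood at 3546 and 2574 CPM in high_fibre macrophages and at 2293 and 1748 CPM in control_diet macrophages. Endothelial cells followed with 1725 and 1171 CPM in high_fibre and 1014 and 825 CPM in control_diet libraries, above pericytes in every library. Fibroblasts had 574 and 368 CPM in high_fibre and 240 and 197 CPM in control_diet libraries, and T cells 859 and 269 CPM in high_fibre and 125 and 97.03 CPM in control_diet libraries. Across types, Hspa1a was higher in macrophages than in the mean of the other types by a log2 fold of 2.63 (SE 0.206, edgeR's quasi-likelihood test with the library as a block, adjusted p = 6.44e-10). It was also higher in endothelial cells, by 0.87 (SE 0.229, edgeR, adjusted p = 0.00256). It was lower in fibroblasts, by −1.28 (SE 0.269, edgeR, adjusted p = 0.000293), and in T cells, by −1.16 (SE 0.302, edgeR, adjusted p = 0.00329). Here and below, each such fold is over the mean of the other types' log2 levels, which a type with few counts lowers strongly. The folds use edgeR's TMM scaling and the CPM do not, so types can stand in another order by fold than by CPM. Pericytes, smooth muscle and B cells did not pass the test, and the means of smooth muscle, B cells, fibroblasts and T cells (337 to 564 CPM) changed places between libraries.

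Hspa1b (ENSMUSG00000090877, chr17:34956436-34959238, minus strand) gave the same order at its top. It had 3570 and 2243 CPM in high_fibre and 2118 and 1509 CPM in control_diet macrophages, a log2 fold of 2.28 over the mean of the other types (SE 0.162, edgeR, adjusted p = 1.36e-10). It was lower than that mean in fibroblasts (−0.90), T cells (−0.92) and smooth muscle (−0.66), all past an adjusted p of 0.05 in edgeR. With both copies summed, macrophages were higher by 2.46 (SE 0.186, edgeR, adjusted p = 3.78e-10) and fibroblasts lower by −1.07 (SE 0.239, edgeR, adjusted p = 0.000553), so both calls also held for the sum. These calls are to be read against a broad background, since 39.2% of the 11752 genes tested were called higher in macrophages and 25.4% lower, and for fibroblasts 40.1% and 30.3%.

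The constitutive Hspa8 (ENSMUSG00000015656, chr9:40800984-40810087, plus strand) varied less between types. Its highest type was again the macrophage, with 3839 and 2569 CPM in high_fibre and 2338 and 2135 CPM in control_diet libraries, and its lowest mean, that of fibroblasts, was 1325 CPM. The log2 fold in macrophages was 1.08 (SE 0.0978, edgeR, adjusted p = 1.42e-09), that in T cells 0.61, that in fibroblasts −0.53 and that in pericytes −0.68. By fold, pericytes thus stood below fibroblasts. Where the 4-library mean of Hspa1a differed 7.53-fold between its highest and lowest type, that of Hspa8 differed 2.05-fold.

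Among the partners of Hsp70, the J-protein gene Dnajb1 (ENSMUSG00000005483, chr8:83608193-83612653, plus strand) was highest in macrophages of all 4 libraries, at 800 and 349 CPM in high_fibre and 340 and 216 CPM in control_diet libraries. Its log2 fold was 1.76 there (SE 0.136, edgeR, adjusted p = 1.32e-10), 0.89 in T cells and 0.63 in B cells, and it was lower in pericytes (−1.52) and endothelial cells (−1.12), all called. Dnaja1 (ENSMUSG00000028410, chr4:40722150-40737149, plus strand), a J-protein of the cytosol, had another order. By CPM, endothelial cells led in all 4 libraries, with 1783 and 990.5 CPM in high_fibre and 964 and 913 CPM in control_diet libraries. Its folds were small, from −0.70 in fibroblasts to 0.46 in endothelial cells and 0.53 in macrophages, which led by fold. Hsph1 (ENSMUSG00000029657, chr5:149614287-149636376, minus strand) was called higher in T cells (1.14), macrophages (0.98) and B cells (0.85). It was lowest in smooth muscle, with a mean of 28.9 CPM. Bag3 (ENSMUSG00000030847, chr7:128523616-128546981, plus strand), which links Hsp70 to small heat shock proteins and autophagy, was lowest in B and T cells. Fibroblasts had 75.8 and 50.8 CPM in high_fibre and 50.02 and 48.3 CPM in control_diet libraries, while B cells gave 8 and 3 UMIs in high_fibre and 1 and 0 UMIs in control_diet libraries. Its log2 fold was 1.77 in fibroblasts (SE 0.164, edgeR, adjusted p = 7.04e-10), 1.55 in endothelial cells and 1.48 in macrophages. The low B and T cells (means of 2.42 and 3.01 CPM) lower the log2 mean behind these folds. The Bag3 gene overlaps 2610306O10Rik on the same strand, so reads there may belong to either.

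Hsp90aa1 (ENSMUSG00000021270, chr12:110690605-110702728, minus strand) was high in the 3 leukocyte types. It had 2206 and 897 CPM in high_fibre and 1222 and 504 CPM in control_diet macrophages, against 946 and 288 CPM in high_fibre and 336 and 234 CPM in control_diet endothelial cells. Its log2 fold was 1.25 in macrophages (SE 0.135, edgeR, adjusted p = 6.98e-08), 0.84 in B cells, 0.83 in T cells and −0.93 in endothelial cells. Hspe1 (ENSMUSG00000073676, chr1:55088132-55091307, plus strand), which shares a divergent promoter with its partner Hspd1, was highest in lymphocytes. B cells had 869 and 472 CPM in high_fibre and 513 and 445 CPM in control_diet libraries, a log2 fold of 0.96 (SE 0.0938, edgeR, adjusted p = 3.34e-11). Endothelial cells were its lowest type in all 4 libraries (−1.19, edgeR, adjusted p = 6.48e-13).

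The small chaperone Hspb1 (ENSMUSG00000004951, chr5:135887919-135889563, plus strand), which protects actin filaments, was highest on average in endothelial cells and next in smooth muscle. Endothelial cells had 2708 and 1837 CPM in high_fibre and 1839 and 1692 CPM in control_diet libraries, and smooth muscle 2021 and 1879 CPM in high_fibre and 1328 and 1295 CPM in control_diet libraries. T cells had 26.3 and 31.3 CPM in high_fibre and 53.4 and 4.22 CPM in control_diet libraries, which are 16, 17, 42 and 1 UMIs in that order. The log2 folds were 2.91 in endothelial cells (SE 0.208, edgeR, adjusted p = 1.77e-10), 2.62 in smooth muscle, 1.39 in fibroblasts, −3.42 in B cells and −3.71 in T cells. The low B and T cells (means of 40.2 and 28.8 CPM) lower the log2 mean against which the other types were set. Over all 10 genes, macrophages had 9 called higher and 0 lower, endothelial cells 5 and 4, fibroblasts 2 and 6, pericytes 0 and 4, smooth muscle 1 and 7, B cells 4 and 2 and T cells 6 and 4. The share of all genes called higher was 39.2% in macrophages, 35.5% in endothelial cells, 40.1% in fibroblasts, 31.3% in pericytes, 23.1% in smooth muscle, 28.6% in B cells and 23.1% in T cells. The share called lower was 25.4% in macrophages, 27.3% in endothelial cells, 30.3% in fibroblasts, 23.4% in pericytes, 18% in smooth muscle, 27.8% in B cells and 27.9% in T cells. The smooth muscle count was between 4 and 6 when libraries were left out in turn, and 5 with cells of at most 10% mitochondrial UMIs. The shares of all genes in those fits are not given here.

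**Figure D1:**
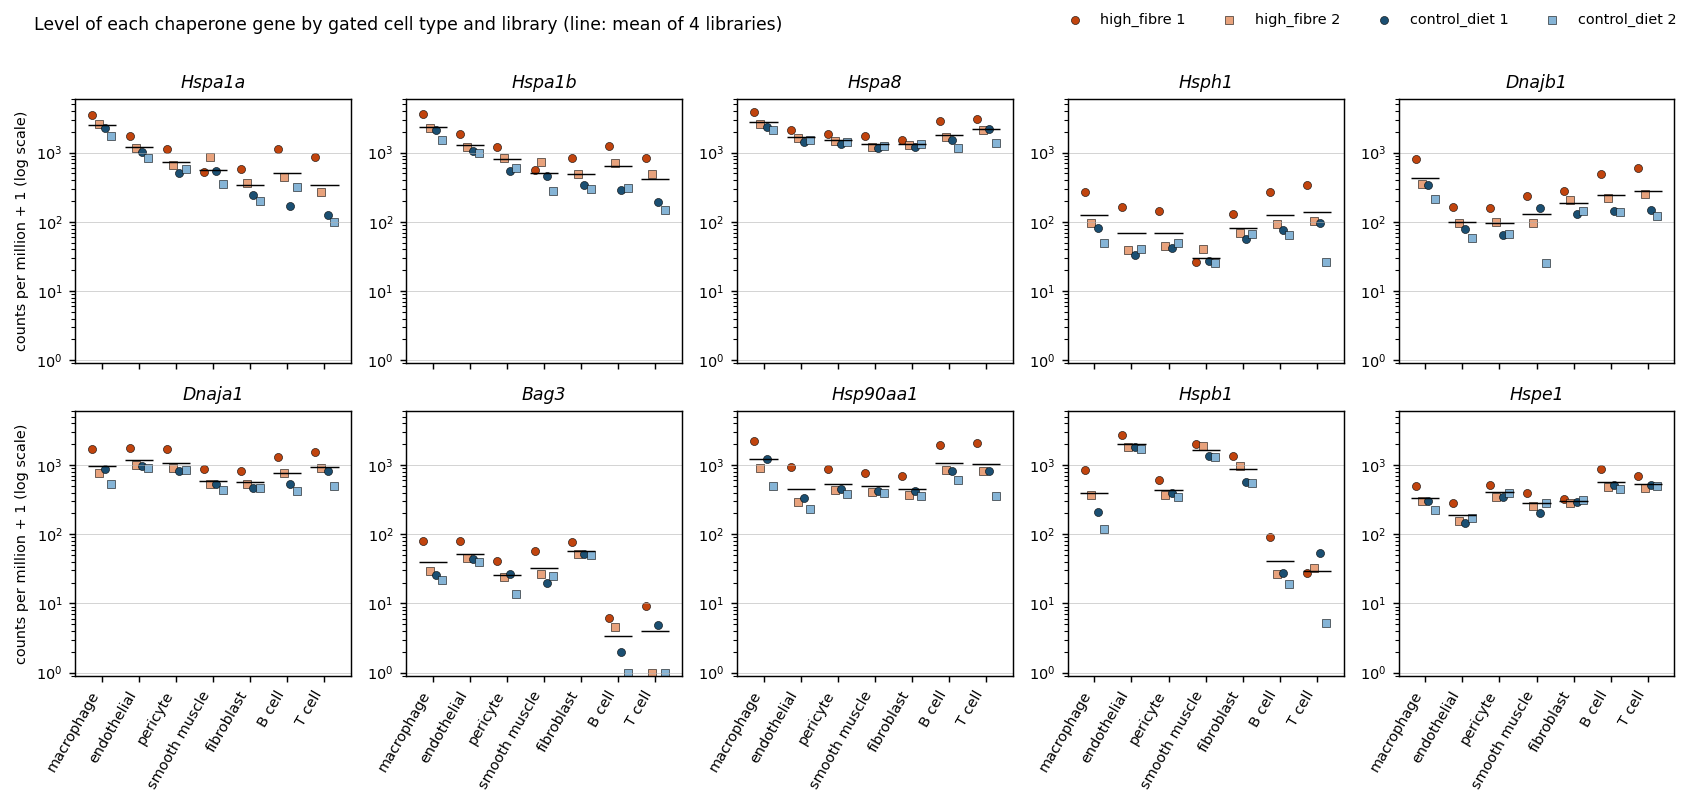
Level of each of the 10 genes (CPM plus 1, log scale) in the 7 gated cell types, with a point for each library, high_fibre left of control_diet, and a line at the mean of 4 libraries. Hspa1a and Hspa1b are highest in macrophages, Hspb1 in endothelial and smooth muscle cells, and Bag3 and Hspb1 are lowest in B and T cells.

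Between libraries, the 10 genes were high together in high_fibre 1. Their summed level in macrophages was 17359 and 10188 CPM in high_fibre 1 and 2, against 9790 and 7047 CPM in control_diet 1 and 2. In endothelial cells it was 11804 and 7459 CPM in high_fibre against 6951 and 6442 CPM in control_diet libraries. In pericytes it was 8225 and 5184 CPM against 4491 and 4696 CPM, in fibroblasts 6606 and 4588 CPM against 3750 and 3757 CPM, and in B cells 10163 and 5254 CPM against 4084 and 3489 CPM. In all 7 types both high_fibre sums lay above both control_diet sums, and in every type but smooth muscle high_fibre 1 stood further from high_fibre 2 than high_fibre 2 did from the control_diet mean. High_fibre 1 was the highest of the 4 libraries in 63 of 66 gene and type pairs tested (95.5%), where 16.6% to 27.4% of all genes tested in a type were highest there. By type this share of all genes was 16.6% in macrophages, 23.1% in endothelial cells, 21.3% in pericytes, 24.5% in fibroblasts, 27.4% in smooth muscle, 18.7% in B cells and 25.7% in T cells. High_fibre 2 was the highest in 2 of the 66 (3.03%), Hspa1a and Hspa1b in smooth muscle, where 22.2% of genes were. That share was 31.3% in macrophages, 28.8% in endothelial cells, 21.3% in pericytes, 23.2% in fibroblasts, 22.6% in B cells and 21.9% in T cells. Both high_fibre libraries lay above both control_diet libraries in 42 of 66 pairs (63.6%), against 13.1% to 19.4% of all genes. They did so for 8 of 10 genes in macrophages (14.6% of all genes), 6 in endothelial cells (19.4%), 5 in pericytes (15.4%), 7 in fibroblasts (16.2%), 3 of 8 in smooth muscle (17.4%), 7 of 9 in B cells (13.1%) and 6 of 9 in T cells (16.9%). The reverse order occurred in 0 of 66, against 14.6% to 19.6%. The fibroblast pairs are part of these counts and were what led to the choice of the genes. Without them high_fibre 1 was the highest in 53 of 56 pairs (94.6%) and high_fibre 2 in 2 (3.57%), and both high_fibre libraries lay above both control_diet libraries in 35 (62.5%) and below in 0. The other types come from the same 4 libraries, so the pairs are not independent of that choice.

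The test over all genes called few of these differences. In macrophages, endothelial cells and smooth muscle 0 of the genes passed edgeR's quasi-likelihood test at an adjusted p of 0.05. There 0% of macrophage, 0.242% of endothelial and 0.12% of smooth muscle genes were called higher in high_fibre. At an unadjusted p under 0.05 the members numbered 0 in macrophages (3.79% of all genes), 1 in endothelial cells (6.25%) and 4 in smooth muscle (4.14%), and DESeq2 called 0 in each of these types. Hspa1b was called in 3 types. In T cells it had 831 and 495 CPM in high_fibre against 189 and 148 CPM in control_diet libraries, a log2 fold of 1.94 (SE 0.249, edgeR, adjusted p = 1.04e-06), where 0.166% of genes were called higher. In B cells it had 1265 and 716 CPM in high_fibre against 289 and 303 CPM in control_diet libraries, a log2 fold of 1.79 (SE 0.252, edgeR, adjusted p = 0.00712), where 0.0139% of genes were. In pericytes it had 1219 and 844 CPM in high_fibre against 544 and 596 CPM in control_diet libraries, a log2 fold of 0.88 (SE 0.151, edgeR, adjusted p = 0.028), where 0.065% of genes were. The groups did not overlap in these 3 types. All types came from the same libraries whose fibroblasts led to the choice of the genes, so these tests are not independent of that choice. The near copy Hspa1a did not pass in the same cells (edgeR, adjusted p = 0.999 in T cells, 1 in B cells and 0.869 in pericytes), nor did the sum of both copies (edgeR, adjusted p = 0.0942, 1 and 0.421). The pericyte call was lost without high_fibre 1 (edgeR, adjusted p = 0.133), with the gate minimum halved (0.191), with a mitochondrial limit of 10% (0.0705) and with DESeq2 (1), and the T cell call with the gate minimum halved (edgeR, adjusted p = 1). Without high_fibre 2, when the lone high_fibre library is assumed to vary like the controls, edgeR called 8 of the genes in endothelial cells, 1 in macrophages, 7 in pericytes, 2 in smooth muscle, 8 in B cells and 6 in T cells. In those fits it called 0.708% of all endothelial, 0.403% of macrophage, 0.573% of pericyte, 0.236% of smooth muscle, 0.166% of B cell and 0.279% of T cell genes in either direction. Without high_fibre 1 it called 0 in endothelial cells (0.0856% of all genes), macrophages (0.06%) and pericytes (0.0729%), 2 in smooth muscle (0.249%), 1 in B cells (0.0801%) and 1 in T cells (0.348%).

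The median differences were smaller in every type once high_fibre 1 was left out. The median log2 fold of the tested genes was 1.41 in B cells (9 genes), 1.28 in T cells (9), 0.86 in macrophages (10), 0.68 in pericytes (10), 0.64 in fibroblasts (10), 0.59 in endothelial cells (10) and 0.52 in smooth muscle (8), where the median of all genes tested was between −0.00473 and 0.00527. Without high_fibre 1 these medians were 0.38 in B cells, 0.48 in T cells, 0.25 in macrophages, 0.12 in pericytes, 0.17 in fibroblasts, 0.091 in endothelial cells and 0.11 in smooth muscle. Without high_fibre 2 they were 1.86 in B cells, 1.81 in T cells, 1.38 in macrophages, 1.09 in pericytes, 0.97 in fibroblasts, 0.93 in endothelial cells and 0.72 in smooth muscle. Bag3 did not pass the low-count filter in smooth muscle, B cells and T cells, nor Hsph1 in smooth muscle, so these genes are absent from the medians there.

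The genes did not share a single profile across libraries. Hspa1a, Hspa1b and Dnajb1 kept high_fibre 2 above both control_diet libraries in all 4 types with at least 100 cells per library (macrophages, endothelial cells, pericytes and fibroblasts). The ratio of high_fibre 2 to the control_diet mean was 1.27 in macrophages, 1.27 in endothelial cells, 1.22 in pericytes and 1.68 in fibroblasts for Hspa1a. Hsp90aa1 had high_fibre 2 between the control_diet libraries in all 4 of these types, and Hspe1 had it above both in macrophages alone. In endothelial cells Hsp90aa1 in high_fibre 1 was 3.31 times the mean of the other 3 libraries, while high_fibre 2 was 1.01 times the control_diet mean. Hspe1 showed 1.82 and 0.991 by the same measures there. Hspb1 took both forms, since its ratio of high_fibre 2 to the control_diet mean was 2.29 in macrophages and 1.72 in fibroblasts but 1.04 in endothelial cells and 0.988 in pericytes. Tests of the diet difference between types, on within-library differences among macrophages, endothelial cells and pericytes, called 0 of 10 genes in each of 3 pairs with limma, and 1 of 10 in each at an unadjusted p under 0.05. Of all genes, 0.379% were called between endothelial cells and macrophages, 0.0222% between endothelial cells and pericytes and 0.0463% between macrophages and pericytes. At an unadjusted p under 0.05 these shares of all genes were 5.92%, 5.93% and 5.54% in the same order. For Hspb1 the difference of log2 folds between macrophages and pericytes was 1.48 (SE 0.282, limma, adjusted p = 0.864, unadjusted p = 0.00337). Pairs with fibroblasts were fitted as well but are not reported here.

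**Figure D2:**
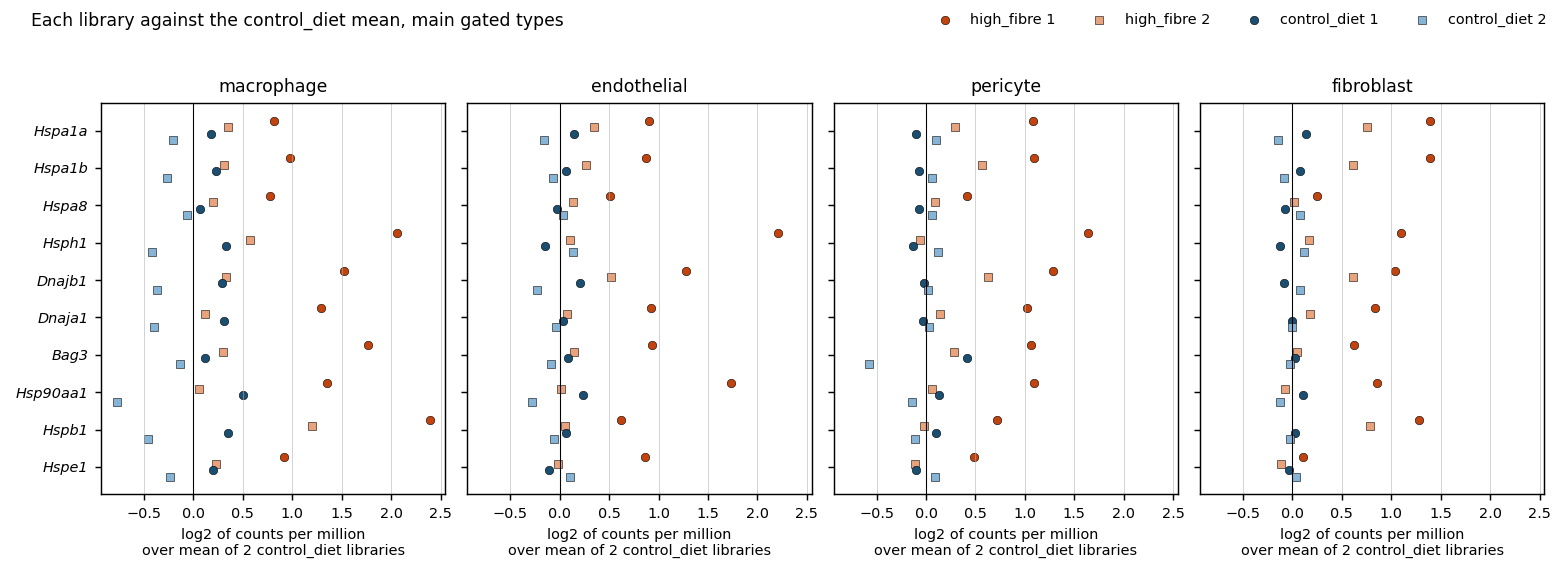
Each library's level over the mean of both control_diet libraries (log2 ratio of CPM) for the 10 genes in the 4 types with at least 100 cells per library, with high_fibre points drawn above control_diet points. High_fibre 1 is the rightmost point for all 10 genes in all 4 types. In all 4 types high_fibre 2 lies right of both control_diet points for Hspa1a, Hspa1b and Dnajb1 and between them for Hsp90aa1. The margin is narrow for Dnajb1 in macrophages (349 CPM against 340 CPM in control_diet 1).

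The summed immediate early list (30 genes found, with Jun, Jund, Fos and Junb the most abundant) was highest in high_fibre 1 in 5 of 7 types, the exceptions being endothelial cells and smooth muscle. In macrophages it was 31336 and 20441 CPM in high_fibre against 28818 and 21314 CPM in control_diet libraries, and in fibroblasts 17669 and 14837 CPM against 15193 and 15006 CPM. It thus had both high_fibre libraries above both control_diet libraries in pericytes alone of the 4 large types, and 0 of its genes were called by diet in edgeR in any type. Over 183 gene and type pairs 19 had an unadjusted p under 0.05, where 3.6% (B cells) to 6.25% (endothelial cells) of all genes had. DESeq2 called 1 of the list, Zfp36 in endothelial cells, which was lower in high_fibre libraries. The median mitochondrial share of macrophages was 5.72% and 6.27% in high_fibre against 5.64% and 5.57% in control_diet libraries, and their median UMI count per cell 10214 and 10746 against 9789 and 13326. Red cell genes summed to 119 and 14922 CPM in high_fibre against 35.1 and 74.8 CPM in control_diet B cells, and to 3213 and 1683 CPM against 35.2 and 1477 CPM in endothelial cells. Neutrophil genes (S100a8, S100a9 and Retnlg) summed to 121 and 13.3 CPM in high_fibre against 0.989 and 2.41 CPM in control_diet macrophages. In B cells they ran the other way, at 479 and 233 CPM in high_fibre against 502 and 1978 CPM in control_diet libraries. In smooth muscle they summed to 504 and 438 CPM in high_fibre against 0 CPM in both control_diet libraries, with 2 called higher by edgeR. In high_fibre endothelial cells the marker sums of all 6 other gated types lay above those of both control_diet libraries. The 7 macrophage markers there summed to 55.9 and 77.6 CPM in high_fibre against 27.6 and 27.7 CPM in control_diet libraries, with 2 called higher by edgeR, and the 6 B cell markers to 30.4 and 20.8 CPM against 7.96 and 4.59 CPM, with 1 called. The part of these measures in the chaperone levels was not tested.

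A list of 64 further chaperones, co-chaperones and heat shock factors had both high_fibre sums above both control_diet sums in 0 of 7 types. Like the members, it had its highest sum in high_fibre 1 in every type but fibroblasts. In endothelial cells the sum was 13398 and 10940 CPM in high_fibre against 11812 and 11679 CPM in control_diet libraries. Its sum in macrophages was 17642 and 12629 CPM in high_fibre against 13783 and 11412 CPM in control_diet libraries, and in fibroblasts 14422 and 13190 CPM against 14515 and 14252 CPM. Of its genes, 0 were called by diet in either direction by edgeR in any of the 7 types. Over 380 gene and type pairs 33 had an unadjusted p under 0.05, where 3.6% (B cells) to 6.25% (endothelial cells) of all genes had. DESeq2 called 1 of the list, Dnajb11 in fibroblasts. Their median log2 fold was between −0.01 in fibroblasts and 0.21 in B cells. Hsf1, the factor that drives the inducible genes, was at 11.7 and 17.5 CPM in high_fibre against 10.4 and 14.5 CPM in control_diet macrophages, its lowest type by mean. The 4 largest diet differences in each large type, none of them called by edgeR, were Hspa5, Cacybp, Hspd1 and Fkbp5 in macrophages, Cacybp, Stip1, Hspa4l and Dnajb4 in endothelial cells, Cryab, Dnaja4, Fkbp5 and Dnajb4 in pericytes, and Fkbp5, Dnaja4, Dnajb11 and Chordc1 in fibroblasts. Stip1, which bridges Hsp70 and Hsp90, had 124 and 61.5 CPM in high_fibre against 53.9 and 67.9 CPM in control_diet endothelial cells, so the groups overlapped. Fkbp5, a co-chaperone of steroid receptors that glucocorticoids induce, had 37.1 and 25.6 CPM in high_fibre against 17.9 and 19.5 CPM in control_diet fibroblasts (log2 fold 0.76, SE 0.201, edgeR, adjusted p = 0.586). Dnajb11, a J-protein of the endoplasmic reticulum, ran the other way, with 122 and 125 CPM in high_fibre against 163 and 162 CPM in control_diet fibroblasts (log2 fold −0.38, SE 0.0773, edgeR, adjusted p = 0.288).

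Across types, of 63 genes of the further list tested, 21 were called higher and 20 lower in macrophages (39.2% and 25.4% of all genes) and 14 and 23 in endothelial cells (35.5% and 27.3%). In pericytes 15 and 23 were (31.3% and 23.4% of all genes), and in fibroblasts 26 and 20 (40.1% and 30.3%). Hmox1, the inducible heme oxygenase, stood at 675 and 347 CPM in high_fibre and 463 and 286 CPM in control_diet macrophages, a log2 fold of 6.26 over the mean of the other types (SE 0.108, edgeR, adjusted p = 3.57e-28). Serpinh1, the collagen chaperone Hsp47, stood at 1189 and 1032 CPM in high_fibre and 1417 and 1346 CPM in control_diet fibroblasts, a log2 fold of 3.96 (SE 0.0797, edgeR, adjusted p = 4.06e-34), and at −3.87 in macrophages. Hspa12b, an endothelial relative of Hsp70, had a log2 fold of 5.68 in endothelial cells (SE 0.13, edgeR, adjusted p = 4.85e-31). The small heat shock genes Hspb8, Hspb2 and Cryab were called higher in fibroblasts (3.51, 3.30 and 3.29), and Hspa12a (4.23) and Hspb8 (3.85) in pericytes. Macrophages, where Hspa1a was highest, were lower in Hspb8 (−3.12), Hspa12a (−3.09), Dnaja4 (−2.59) and Hspa12b (−1.92). Hsf1 itself was called lower in macrophages (−0.75, SE 0.101, edgeR, adjusted p = 2.21e-08) and higher in pericytes (0.58, SE 0.123, edgeR, adjusted p = 9.44e-05).

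Across single cells, the inducible genes varied together within a library and type, most of all the Hsp70 copies and only weakly for most other pairs. Each cell of the 4 large types was thinned to 2000 UMIs, and the correlation was taken on log2 values over the cells of each of 16 library and type sets (107 to 2251 cells). Cells with fewer UMIs were left out, which took 0.51% to 2.91% of fibroblasts, 3.6% to 7.54% of endothelial cells and 1.31% to 2.56% of macrophages. Of pericytes it took 11.2% and 15.1% in high_fibre and 6.87% and 7.76% in control_diet libraries. Cells of 1 set share a library and a digestion, and no test was made. Hspa1a and Hspa1b had a mean Pearson r of 0.535, with a range of 0.331 to 0.659. Next came Hspa1a with Hspb1 (0.221), Hspa1b with Hspb1 (0.219), Hspa1a with Hsp90aa1 (0.185) and Hspa1b with Hsp90aa1 (0.178). Bag3, with few UMIs in a thinned cell, had a mean r of at most 0.0327 with any other member. The pairs differed by type. In endothelial cells Hspb1 went with Hspa1a (0.375, range 0.277 to 0.465) and Hspa1b (0.376, range 0.311 to 0.46), whereas in macrophages, where Hspb1 is low, the means were 0.135 and 0.13 and Hsp90aa1 was the closest partner of Hspa1a after Hspa1b (0.354).

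The mean r over all 45 pairs was highest in macrophages in each library, at 0.222 and 0.157 in high_fibre and 0.163 and 0.0949 in control_diet libraries. It was 0.177 and 0.0801 in high_fibre and 0.0955 and 0.0668 in control_diet endothelial cells, 0.131 and 0.0516 against 0.0825 and 0.0432 in pericytes, and 0.129 and 0.0721 against 0.0595 and 0.0635 in fibroblasts. Of the 45 pairs, 45 had an r above 0 in high_fibre 1 macrophages but 27, the fewest, in control_diet 2 pericytes. Without the Hspa1a and Hspa1b pair the mean r was 0.213 and 0.0303 in these sets, the highest and the lowest. High_fibre 1, the library with the highest levels, had the highest mean r in all 4 types, and high_fibre 2 lay above both control_diet libraries in fibroblasts alone. Counting noise weakens a correlation of sparse counts, so a set with higher counts gives a higher r, and the part of level in this order was not tested.

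**Figure D3:**
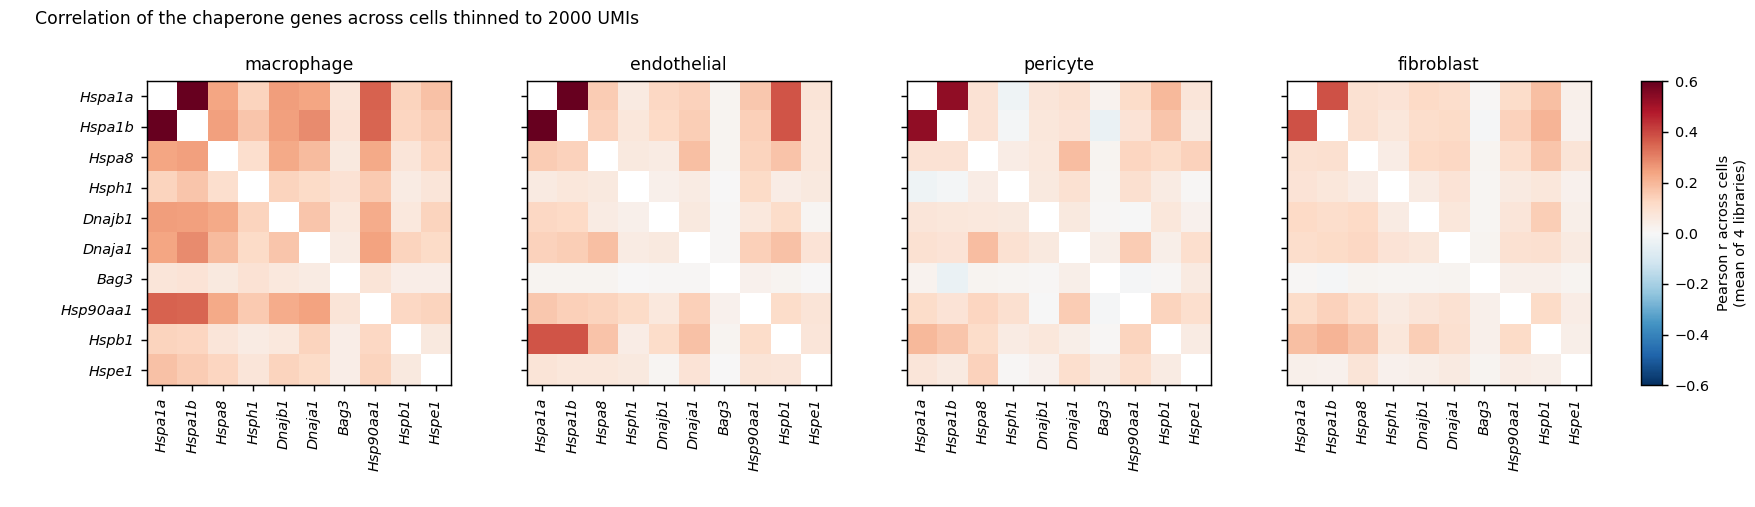
Pearson r across cells thinned to 2000 UMIs for each pair of the 10 genes, averaged over 4 libraries, in the 4 types with at least 100 cells per library (colour scale from −0.6 to 0.6, diagonal left blank). The Hspa1a and Hspa1b pair is darkest in every type, the macrophage panel is darkest over the other pairs, and the rows of Bag3 are near 0.

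Expression of inducible Hsp70 was also uneven between cells of a type. With Hspa1a and Hspa1b summed, the 10% of macrophages with the most UMIs held 26.7% and 29.7% of them in high_fibre and 32.2% and 33.8% in control_diet libraries. In fibroblasts it held 43.3% and 51.5% in high_fibre and 58.1% and 58.9% in control_diet libraries, and in B cells 33.1% and 60.5% against 67.5% and 79.1%. For Hspa8 the top 10% held 22.4% to 24.4% in macrophages and 24.7% to 26.8% in fibroblasts. Such a share rises as counts fall, and the thinned macrophages averaged 15.6 and 9.91 UMIs of both copies in high_fibre and 9.35 and 6.71 in control_diet libraries, against 2.73 and 1.64 in high_fibre and 1.09 and 0.985 in control_diet fibroblasts. At least 1 UMI of either copy was found in 96.6% and 90.3% of thinned high_fibre and 88.55% and 84.3% of thinned control_diet macrophages, and in 65.8% and 50.2% of high_fibre and 40.3% and 39.7% of control_diet fibroblasts. Before thinning these shares were 99.3%, 97.2%, 94.5% and 92.7% of macrophages and 87.4%, 80.9%, 74.5% and 77.0% of fibroblasts, in the same library order. No gated type is known to lack Hsp70, so the share due to free RNA could not be set for it. For Hspb1, which is low in lymphocytes, thinned B cells gave 9.18% and 2.41% in high_fibre and 5% and 4.44% in control_diet libraries (15.8%, 34.7%, 6.1% and 27.4% of B cells, in the same library order, had too few UMIs to be thinned), against 32.6% and 20.7% in high_fibre and 14.0% and 10.9% in control_diet macrophages.

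**Figure D4:**
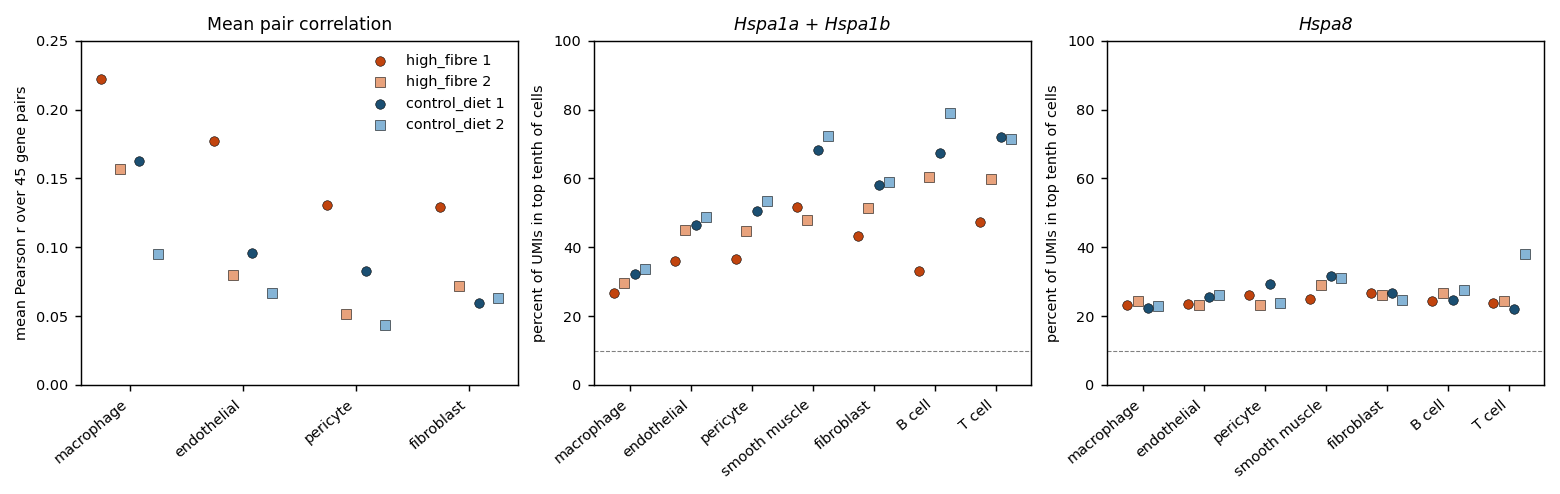
Left, mean Pearson r over the 45 gene pairs for each library in the 4 large types; middle and right, percent of a gene's UMIs that lie in the 10% of thinned cells with the most of them, for Hspa1a and Hspa1b summed and for Hspa8, by gated type, with high_fibre points left of control_diet points. The dashed line marks an even spread of 10%. High_fibre 1 has the highest mean r in all 4 types, and Hspa8 is spread more evenly than inducible Hsp70 in every type.

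The genes that followed the summed 10 chaperones most closely from cell to cell were mostly immediate early genes. Of 2639 other genes detected in at least 5% of thinned cells of all 16 sets, those reported with the highest mean r were Jun (0.332), Hsp90ab1 (0.266), Fos (0.262), Jund (0.252), Egr1 (0.217), Ubb (0.217), Junb (0.216), Btg2 (0.214), Dusp1 (0.179), Zfp36 (0.172) and Ier2 (0.153). The median gene had a mean r of −4.35e-05 and the 99th percentile was 0.085. Of these 11, 9 belong to the immediate early list, which had 13 genes among the 2639, and 2 to the further chaperone list, which had 35. Hsp90ab1 encodes the constitutive cytosolic Hsp90, and Ubb a polyubiquitin that heat shock also induces. Jun had a positive r in all 16 sets, from 0.138 to 0.434. The summed immediate early UMIs had an r with the summed chaperones of 0.515 and 0.397 in high_fibre and 0.394 and 0.198 in control_diet macrophages, and of 0.49 and 0.457 against 0.496 and 0.321 in endothelial cells. The mitochondrial share of a cell had an r between −0.263 and −0.182 in macrophages and between 0.00707 and 0.0864 in endothelial cells. Total UMIs before thinning had an r of −0.128 to 0.288 over the 16 sets.

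**Figure D5:**
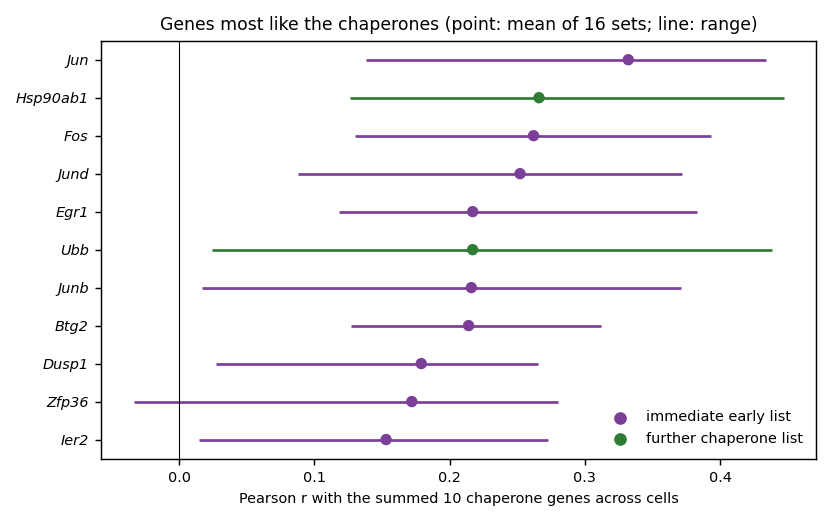
The 11 genes reported as having the highest mean Pearson r across cells with the summed 10 chaperones, with the mean of 16 library and type sets as a point and the range as a line. Jun leads at 0.332, and 9 of the 11 are from the immediate early list (purple) and 2 from the further chaperone list (green).

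Macrophages, the type with the highest inducible Hsp70, also had the highest immediate early sum of all types in each library, at 31336 and 20441 CPM in high_fibre and 28818 and 21314 CPM in control_diet libraries. Fos was higher there by a log2 fold of 2.73 (SE 0.144, edgeR, adjusted p = 1.08e-12) and Jun by 2.05 (SE 0.099, edgeR, adjusted p = 2.98e-14). Of 29 genes of the list tested across types, 25 were called higher and 1 lower in macrophages, where 39.2% and 25.4% of all genes were. The endothelial cells, second in Hspa1a, had 7 called higher and 19 lower, where 35.5% and 27.3% of all genes were. The fibroblasts, low in Hspa1a, had 18 higher and 4 lower, where 40.1% and 30.3% of all genes were.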

How the data were processed

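Per the labels, single live nucleated heart cells were captured with 10x Genomics 3′ chemistry. The submitters' processing notes name Cell Ranger 3.1.0 and mm10, and the authors deposited 1 matrix of raw UMI counts per library. Barcodes were kept from 500 UMIs and 250 genes upwards if no more than 20% of UMIs were mitochondrial. Gates used at least 2 marker UMIs and a minimum per 10000 UMIs, set on the marker distributions. Cells passing several gates were left out, and no doublet caller was run. UMI counts were summed per library and gated type and tested with edgeR 4.0.16 (quasi-likelihood, TMM scaling, filterByExpr, R 4.3.3), between diets within a type, and across types with the library as a block. Adjusted p-values are Benjamini-Hochberg over all genes tested, with a threshold of 0.05. Differences between types in the diet effect used limma 3.58.1, and DESeq2 1.42.0 was an alternative. With 2 libraries a group, a 2-sided exact permutation test cannot go below 0.333. P-values of the diet fits measure the spread between libraries, and the others how far differences between types vary from library to library. Either may be technical. Correlations were computed in Python 3.11.15 on cells thinned to 2000 UMIs. The statistics were checked on simulated data. The 10 genes, the further lists, the gates and the tests were chosen with earlier results of these data known. Besides the 10 genes, the text names the further chaperones called in a comparison (at most 6, largest first), the 4 largest diet differences of those with a mean of at least 10 CPM in each large type, the 4 most abundant immediate early genes and the 12 genes most like the chaperones, of which 1 is not reported here. Dnajb11 and Zfp36 as DESeq2 calls were named after their values were seen.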

Additional observations from a re-analysis of the deposited data

Results flagged for a closer look

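The comparisons of gated types left out the cells that passed none or several of the gates, and the chaperones differed between libraries there too. In cells that passed none (140 to 593 per library) the 10 genes summed to 10046 and 6050 CPM in high_fibre and 4764 and 4673 CPM in control_diet libraries, with means of 8048 ± 2825 and 4718 ± 64.2 CPM (SD, n = 2 each). Hspa1a and Hspa1b together averaged 2279 CPM in high_fibre and 1018 CPM in control_diet libraries in these cells. In cells that passed several gates (107 to 388 per library) the sum was 10269 and 6520 CPM in high_fibre and 5610 and 4287 CPM in control_diet libraries, with means of 8395 and 4948 CPM. Hspa1a and Hspa1b together averaged 2703 CPM in high_fibre and 1429 CPM in control_diet libraries there. High_fibre 1 was again the highest library in both sets. The differences were not tested.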

How the results depend on the processing

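Of the log2 folds by diet under the alternatives, 729 kept direction and side of the threshold, 107 newly passed it, 5 no longer passed and 17 changed sign, and of the folds by type 825, 21, 30 and 20. The cause was not tested unless named. The counts are given in the order fibroblasts, endothelial cells, macrophages, pericytes, smooth muscle, B cells and T cells unless types are named. Genes tested by diet numbered 13698, 12392, 11596, 9231, 4175, 7201 and 5420, and the replicate block below used the same genes. Genes called by diet numbered 1, 38, 0, 6, 7, 2 and 11. Without the low-count filter they were 276, 290, 53, 34, 13, 16 and 35. The shared repeat number is not documented as a pairing, and with it as a replicate block they were 3 in fibroblasts, 82 in endothelial cells, 18 in macrophages, 13 in pericytes, 28 in B cells and 27 in T cells. DESeq2 called 44 in fibroblasts, 3 in pericytes, 2 in smooth muscle, 1 in B cells and 1 in T cells. The halved gate minimum gave 4 in fibroblasts, 3 in pericytes and 5 in T cells, and the doubled one 7 in endothelial cells, 10 in pericytes, 3 in smooth muscle and 5 in T cells. A mitochondrial limit of 10% gave 16 in endothelial cells, 3 in pericytes, 3 in smooth muscle and 1 in B cells. Leaving out shared barcodes, an alternative chosen after seeing the data, gave 3 in fibroblasts, 13 in endothelial cells and 4 in smooth muscle. Leaving out each library in turn gave 4 to 120, 11 to 315, 1 to 47, 7 to 55, 11 to 38, 6 to 37 and 18 to 88. Of the 10 chaperones 0 were called in endothelial cells, macrophages and smooth muscle, and 1 each in pericytes, B cells and T cells. Calls in fibroblasts are left out, since the values there chose the genes, and the fibroblast medians below are a description only. Without the filter 3 chaperones were called in endothelial cells, 2 in macrophages, 4 in pericytes, 6 in B cells and 3 in T cells. The number of genes tested without the filter is not given here, so the share of all genes cannot be set beside these. With the replicate block 2 chaperones were called in endothelial cells, 4 in macrophages, 2 in pericytes, 7 in B cells and 7 in T cells. DESeq2 called 0 in pericytes, the halved minimum 0 in pericytes and 0 in T cells, the doubled one 2 in pericytes and the mitochondrial limit 0 in pericytes. Leaving out each library in turn moved the median log2 folds of the chaperones. They were 0.17 to 0.97 in fibroblasts, 0.091 to 0.93 in endothelial cells, 0.25 to 1.38 in macrophages and 0.12 to 1.09 in pericytes. In smooth muscle they were 0.11 to 0.72, in B cells 0.38 to 1.86 and in T cells 0.48 to 1.97. Between types, the replicate block called 1 chaperone for endothelial cells against macrophages and 1 for macrophages against pericytes. The share of all genes called in those fits is not given here, so these counts stand without a background. Across types, smooth muscle had 8 chaperones called, where 23.1% of all genes were called higher and 18% lower. It had 5 with the mitochondrial limit and 4 to 6 without 1 library, and the shares of all genes in those fits are not given here. The mean pair r without thinning was 0.186 in fibroblasts, 0.174 in endothelial cells, 0.28 in macrophages and 0.136 in pericytes.

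Signs that turned were those of folds that did not pass the test. By type they were Dnajb1 in fibroblasts (−0.0119 with the halved minimum, −0.052 without shared barcodes, −0.0922 to 0.222 without 1 library), Hsph1 in fibroblasts (0.0247 with RLE scaling, 0.0807 with DESeq2, 0.0256 without the filter, 0.0022 with the doubled minimum), Hspb1 in pericytes (0.058 with the halved minimum, 0.0541 without shared barcodes), Bag3 in pericytes (−0.0125 with the halved minimum) and Dnaja1 in B cells (0.0088 with the halved minimum). Without 1 library, Hsph1 in fibroblasts was −0.149 to 0.129, Hspb1 −0.0651 to 0.528 in macrophages and −0.198 to 0.026 in pericytes, Bag3 in pericytes −0.0404 to 0.291, Hspa1a in smooth muscle −0.52 to 0.15 and Dnaja1 in B cells −0.156 to 0.0428. By diet, Hspb1 in T cells, on 1 to 42 UMIs a library, was 2.87 with the halved minimum, 0.191 with the doubled one, 1.99 without shared barcodes and −0.855 to 2.62 without 1 library. Leaving out 1 library gave Hspe1 −0.119 to 0.139 in fibroblasts, −0.0446 to 0.879 in endothelial cells, −0.0978 to 0.53 in pericytes, −0.013 to 0.92 in B cells and −0.117 to 0.467 in T cells. It gave Hsp90aa1 −0.0797 to 0.878 in fibroblasts, −0.0175 to 1.75 in endothelial cells and −0.0068 to 0.943 in smooth muscle. In pericytes it gave Hspb1 −0.0206 to 0.75 and Hsph1 −0.0273 to 1.7, and in smooth muscle Hspa8 −0.0445 to 0.522 and Dnajb1 −0.152 to 2.54. The lowest of each of these was without high_fibre 1, except for Dnajb1 in smooth muscle and Hspb1 in T cells, where it was without control_diet 2.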
